A study of Arabidopsis thaliana with 24 samples.

Results

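The peaks described here are the 200 bZIP68 binding regions that lie outside promoters, out of 5734 regions on the nuclear chromosomes in the larger of the authors' peak lists. They were chosen by the annotation that the authors' table gives each peak: every peak whose annotation does not begin with "Promoter" was taken, and in practice each of them lies more than 3000 bases from the start of the gene to which the authors assigned it. The other 5534 nuclear peaks carry the annotation Promoter and serve for comparison; 14 further peaks of the list, on organelle genomes, were left out. The ChIP-seq part of the study had 3 samples of bZIP68-FLAG seedlings, set against 3 samples of GFP-FLAG seedlings as the input of the peak call. For ChIP, whole Arabidopsis seedlings were 8 days old and grew at 125 umol of light per square metre and second. They were cross-linked in 1% formaldehyde, and their chromatin was pulled down through the FLAG tag. The RNA-seq part used 14-day-old whole seedlings in 4 groups of 3 libraries, namely bzip68 sprayed with 5 mM H2O2, wt sprayed with 5 mM H2O2, bzip68 sprayed as mock and wt sprayed as mock. All 4 groups received 0.01% Triton X-100 in the spray and grew at 125 umol of light per square metre and second. The mutant allele, the promoter that drives the FLAG fusions, the number of transgenic lines and the time from spraying to harvest are not stated in these sources. The labels do not say whether the libraries of a group are separate cultures, and the spread that p-values rest on may therefore be technical.

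bZIP68 is a group G basic leucine zipper (bZIP) transcription factor, a relative of the G-box binding factors GBF1, GBF2 and GBF3 and of bZIP16. These proteins bind DNA as dimers, and their classic target is the G-box, the palindrome CACGTG built around an ACGT core, which is common upstream of plant genes that answer to light, abscisic acid and stress. Basic helix-loop-helix factors of the light pathway bind the same letters. In the compact Arabidopsis genome most transcription factor peaks fall close to gene starts, and peaks elsewhere can lie far upstream of a gene, behind it, or within its transcribed part.

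The G-boxes nearest to the centres of 9 peaks are shown with 12 bases on each side, read on the plus strand of the RefSeq sequence of the TAIR10.1 assembly, with the box in capitals. The first 4 belong to the highest peak of the distal intergenic class, the highest of the 3′ UTR class, the highest downstream peak that holds a box and the higher of the 2 intron peaks that hold one. The next 2 are from peaks among the 10 highest, and the last 3 are from peaks assigned to genes described further on.
GATA13, distal intergenic, chr2:12108260-12108289: tcacgatgatgcCACGTGtacttcaaaata
AT2G23755, 3′ UTR, chr2:10108105-10108134: acgtcttgctgaCACGTGgcgacggtgaac
LCR5, downstream, chr2:12123454-12123483: cccatgctatgcCACGTGtatggtagattg
AT1G32120, intron, chr1:11556506-11556535: tattgtattaaaCACGTGgcatttataatt
AT2G19802, distal intergenic, chr2:8544040-8544069: aaagccttgtacCACGTGtacttttcgtac
MP, distal intergenic, chr1:6883184-6883213: tcgcatgaatgaCACGTGtacgtaatcgac
MAX2, distal intergenic, chr2:17752274-17752303: acccacatgtgaCACGTGgaattctagaaa
ERF4, downstream, chr3:5125548-5125577: cggcgcgtgagcCACGTGtttagagttctg
A/N-InvC, distal intergenic, chr3:2008515-2008544: cttagcgtgcacCACGTGgcgtccggcgat
The 10 exon peaks hold no box in the window searched, so that none of them is shown.

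By the authors' annotation, 129 of the 200 peaks were distal intergenic, 32 lay in a 3′ UTR, 26 lay downstream of a gene, 10 in an exon and 3 in an intron. Chromosome 1 held 48, chromosome 2 held 38, chromosome 3 held 41, chromosome 4 held 26 and chromosome 5 held 47. The distance given by the authors, from the nearest edge of the peak to the assigned gene start, ran from 3005 to 134182 bases with a median of 3991, and 94 peaks lay upstream of that start and 106 downstream. At the edge of the rule, peaks assigned to ARP, AT1G20990 and DWF4 lay 3005, 3008 and -3012 bases from the start and were taken, while peaks assigned to MKP1, AT1G61260 and ARF6 lay -2981, -2980 and 2977 bases away and count as promoter peaks. The 200 peaks were assigned to 196 genes, and 50 of these genes also had a promoter peak. None of the 200 shares a base with a peak of the authors' shorter list, which is restricted to a window around gene starts.

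The score, which the authors' file header defines as 10 times the negative log10 of the peak caller's p-value, had a median of 130.4 over the 200 peaks and of 149.5 over the promoter peaks. The range outside promoters, from 60.88 to 1406.81, lay within that of promoter peaks, from 52.76 to 3135.41, which reached higher. Of the 200, 41.0% scored above the median of all peaks, against 50.3% of promoter peaks. The medians by class were 144.1 for distal intergenic, 128.4 for 3′ UTR, 110.9 for downstream, 100.5 for exon and 72.8 for intron peaks. Strong peaks were therefore present in the first 3 classes, and the 3 intron peaks were all among the weak ones, between 70.55 and 73.21. The whole list has 1 score per peak and no value per sample, so that no spread between ChIP samples can be given, and scores within 1 list serve here only to rank peaks. Of the 200, 5 were among the 100 highest peaks of the whole list and 14 among the 500 highest.

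**Figure D1:**
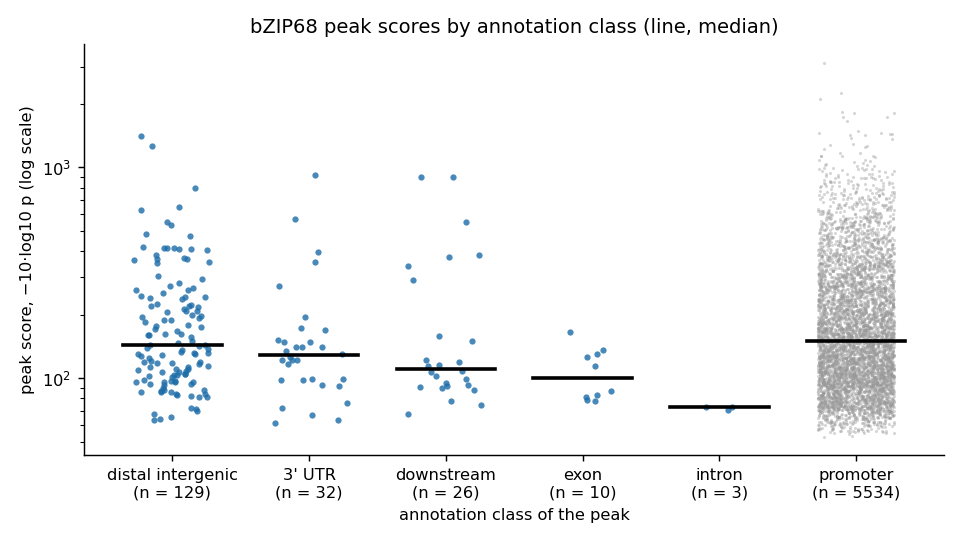
Peak score (vertical axis, 10 times the negative log10 p, log scale) of each bZIP68 peak by annotation class, 1 point per peak, with a line at the median. The distal intergenic, 3′ UTR and downstream classes each reach above 900, while no exon peak exceeds 165.81 and no intron peak exceeds 73.21; promoter peaks (right) span 52.76 to 3135.41.

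The highest peak outside promoters, ranked 17 of all, had a score of 1406.81 at chr2:12108120-12108637. It lay 4448 bases downstream of the start of GATA13, a gene for a GATA-type zinc finger factor, in intergenic sequence, and its window held 1 G-box. On the same chromosome, 14573 bases further on at chr2:12123211-12123855, stood the downstream peak assigned to LCR5, a gene for a small cysteine-rich protein, with a score of 899.85 and 2 G-boxes. The second highest, with a score of 1256.18, lay 10547 bases upstream of AT1G42430, and the nearest gene start in the newer annotation was that of a pseudogene, AT1G42420, at 2343 bases. Neither GATA13 nor AT1G42430 had a promoter peak. A peak with a score of 799.93 lay 4526 bases upstream of AT2G19802 and held 5 G-boxes within 150 bases of its centre, the most of any of the 200. AT2G19802 had a promoter peak too. The peak of MP, which encodes the auxin response factor MONOPTEROS, had a score of 624.79 and lay 3371 bases upstream of the gene. The remaining distal peak among the 10 highest, with a score of 650.92, was assigned to AT3G26539 at 6053 bases and lay 1910 bases from a pseudogene start.

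Several other distal peaks lay upstream of genes with well-known roles; these were picked after their values were seen. MAX2, the F-box protein of strigolactone and karrikin signalling, had a peak with a score of 484.59 at 3373 bases upstream. NCED3, the enzyme of the committed step of abscisic acid synthesis, had one with a score of 187.6 at 5194 bases upstream and no G-box in the window. The plasma membrane proton pumps HA1 and HA2 each had 1, with scores of 95.71 and 147.0 at 5084 and 3652 bases upstream, each with 1 G-box. NIA2, a nitrate reductase gene, had a peak 10113 bases upstream with a score of 110.2. Between RCD1, a regulator of oxidative stress responses, and KAN2, a KANADI factor of organ polarity, there were 2 peaks, with scores of 177.7 and 113.4 at 7419 and 8268 bases downstream of the assigned starts. Of these genes, MAX2, NCED3 and NIA2 had a promoter peak too, and HA1, HA2, RCD1 and KAN2 had none.

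The 3′ UTR class had 32 peaks. The strongest, with a score of 915.48 at chr2:10107757-10108461, was assigned by distance to AT2G23755, but its centre lay within BLH4 in the newer annotation, a gene for a BEL1-like homeodomain protein. The second, with a score of 569.61, lay in APRR2, a pseudo-response regulator gene, and the third, with a score of 395.1, covered 3678 bases at the end of TIC, a clock-associated gene, which makes it the widest of the 200. NIA1, the other nitrate reductase gene, and NRT1.1, the nitrate transporter and sensor, had 3′ UTR peaks with scores of 274.8 and 140.0. TIC and NIA1 had a promoter peak too, and APRR2 and NRT1.1 had none. In the newer annotation the centre lay within the assigned gene for 15 of the 32, within another gene for 8 and in no gene for 9. The peak assigned to GBSS1 illustrates the last case: with a score of 147.8 and 3343 bases behind the start of GBSS1, it was centred 73 bases from the annotated start of a pseudogene, AT1G32890.

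The downstream class had 26 peaks, 8 within 1 kb of a gene end, 12 at 1 to 2 kb and 6 at 2 to 3 kb. The highest had a score of 904.09 and was assigned to EMB269, a chloroplast GTPase gene, while the nearest start by the peak centre was that of PUCHI, an AP2/ERF factor, at 4416 bases. The peak behind AT2G01580 followed LCR5 with a score of 550.83. The highest peak of the class at 1 to 2 kb was assigned to AT3G45555 with a score of 381.7, followed by one assigned to AT1G68552 with 150.1. At 2 to 3 kb, the peak of AT2G01580 was followed by one assigned to GTR1, a glucosinolate transporter gene, with 341.8. These peaks of AT3G45555, AT1G68552 and GTR1 lay 3853, 4527 and 3163 bases upstream of the assigned start, and so behind another gene. Of the 26 downstream peaks, 7 lay upstream of the assigned start and 19 downstream of it. ERF4, a repressor of the ethylene response factor family, had a downstream peak with a score of 374.1 and 2 G-boxes, centred 230 bases from the start of a long non-coding RNA of the newer annotation. ERF4 had a promoter peak too.

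Exon and intron peaks were few and weak. The 2 highest exon peaks, with scores of 165.8 and 135.9, lay in exon 14 of 15 of ASY2, a meiotic axis gene, and in exon 9 of 12 of AT2G03250, an EXS family gene. For 5 of the 10 exon peaks the host was the assigned gene, among them FY, a factor of RNA 3′ end processing, with a peak in exon 17 of 19. The intron peaks lay in intron 2 of 78 of ATM, the DNA damage kinase, in intron 2 of 3 of AT1G32120 and in the single intron of AT5G32690. In the newer annotation the centres of the first 2 of these lie in no gene, and the third lies in a transcribed pseudogene.

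A G-box was found in the window that reaches 150 bases to each side of the centre in 70 of the 200 peaks, or 35.0% (95% Wilson interval 28.7 to 41.8%, which covers counting error only). The share was 30.9% for promoter peaks, 1710 peaks in all, and 3.27% for all windows of this length tiled over the nuclear genome. Within the class, 15 of 26 downstream peaks held a box (57.7%), as did 49 of 129 distal intergenic peaks (38.0%), 4 of 32 3′ UTR peaks (12.5%), 2 of 3 intron peaks and 0 of 10 exon peaks. Thus the downstream and distal classes held the box at a share above that of promoter peaks and the 3′ UTR and exon classes at a share below it; these are descriptions of small classes, and no test was made of them. At least 2 boxes stood in the windows of 30 peaks (15.0%), against 6.31% of promoter peaks. Some of these windows resemble each other. Both AT3G33103 peaks, with 3 boxes each, share nearly the same bases around the box with those of AT1G41820 (2 boxes) and AT3G33187 (3 boxes, other strand). The sites of AT5G35870 and AT4G07320, with 2 boxes each, are also alike. Such peaks are counted separately in the shares and in the Wilson interval. The box became more common with score: it was found in 41.5% of the 82 peaks that scored above the median of all peaks and in 30.5% of the 118 below it, and in 37.5% and 24.2% of promoter peaks. Over the whole peak, and not the central window, the box was present in 42.5% of peaks outside promoters and 47.6% of promoter peaks, and the peaks had a median width of 829.5 bases outside promoters and 953 bases in promoters.

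The boxes stood close to the peak centres. In the 70 windows with a box, the nearest one lay at a median of 43 bases from the centre. Per 100 peaks, there were 14.5 boxes in the 50 bases before the centre and 12.5 in the 50 bases after it, against 8.49 and 8.22 for promoter peaks. In the stretches of 50 bases between 500 and 1000 bases from the centre, the boxes per 100 peaks ranged from 0 to 1.5 outside promoters. For promoter peaks they ranged from 0.56 to 1.265, and the nuclear genome as a whole holds 0.609 per 100 stretches of that length. The counts at the flanks are small, between 0 and 3 boxes in most stretches of 50 bases outside promoters.

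**Figure D2:**
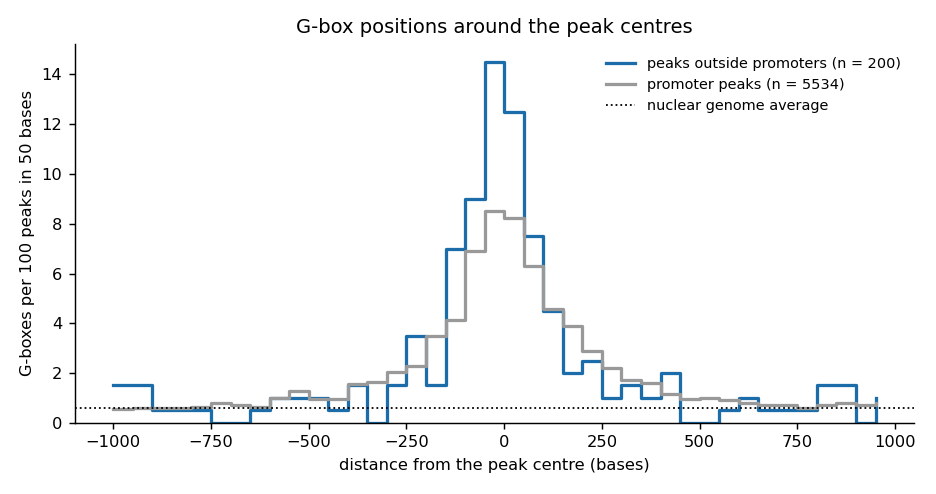
G-boxes (CACGTG) per 100 peaks in stretches of 50 bases (vertical axis) against the distance from the peak centre in bases (horizontal axis), for peaks outside promoters (blue), promoter peaks (grey) and the average of the nuclear genome (dotted). Both curves have their maximum at the centre, at 14.5 outside promoters and 8.49 in promoters.

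Other ACGT elements were searched on both strands in the same window. CACGTC (or GACGTG on the other strand) was present in 29.0% of peaks outside promoters, 24.6% of promoter peaks and 4.74% of genome windows. TACGTG (or CACGTA) was present in 16.5% of peaks outside promoters, 14.5% of promoter peaks and 5.31% of genome windows. GACGTC, the C-box, was present in 5.0% of peaks outside promoters, 7.14% of promoter peaks and 2.24% of genome windows, the only one of these elements with a lower share outside promoters than in them. The ACGT core, which all of these and the G-box contain, was present in 79.0% of peaks outside promoters, 76.5% of promoter peaks and 40.7% of genome windows. Thus 158 of the 200 windows held the core and 42 did not. For the exon class the core was present in 5 of 10 windows. Read outward on both strands, the base before the box was A at 45.0% and C at 37.7% of the ends of the 110 boxes in these windows. In promoter peaks A stood at 40.2% and C at 39.4% of the ends, and at all 14508 boxes of the nuclear genome A stood at 33.7% and C at 25.2%. T stood before 10.0% of the ends in peaks outside promoters, 12.4% in promoter peaks and 26.4% in the genome.

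Whether a peak is outside a promoter depends on which gene starts an annotation holds. The newer RefSeq annotation of TAIR10.1 lists 37899 nuclear genes with pseudogenes and long non-coding RNAs (lncRNAs). By it, the centres of 51 of the 200 peaks lay within 1000 bases of a gene start, and 102 within 3000, against 4256 and 5474 of the promoter peaks. Of the 51, 25 were near a pseudogene start, 18 near that of an lncRNA, 7 near that of a protein-coding gene and 1 near that of a microRNA. The nearest start of all belonged to a pseudogene for 32.5% of the peaks outside promoters, to an lncRNA for 17.5% and to a protein-coding gene for 44.5%. For promoter peaks the shares were 0.958%, 5.69% and 88.7%. Of the nuclear genome itself, 51.0% lies within 1000 bases of some start in this annotation and 91.0% within 3000. A start at these distances is therefore common anywhere. The share of the 200 peaks at either distance is below that of the genome. The rule itself favours this, since each of the 200 lies more than 3000 bases from its assigned start. It bears in the same way on the kinds of nearest start, for which no genome share is given here. The assigned gene had the nearest start for 80 of the 200 peaks, so that for the other 120 the assigned gene and the nearest start of the newer annotation differ. Of the 129 distal intergenic peaks, 33 had their centre inside a gene of the newer annotation, mostly a pseudogene (21) or an lncRNA (9).

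**Figure D3:**
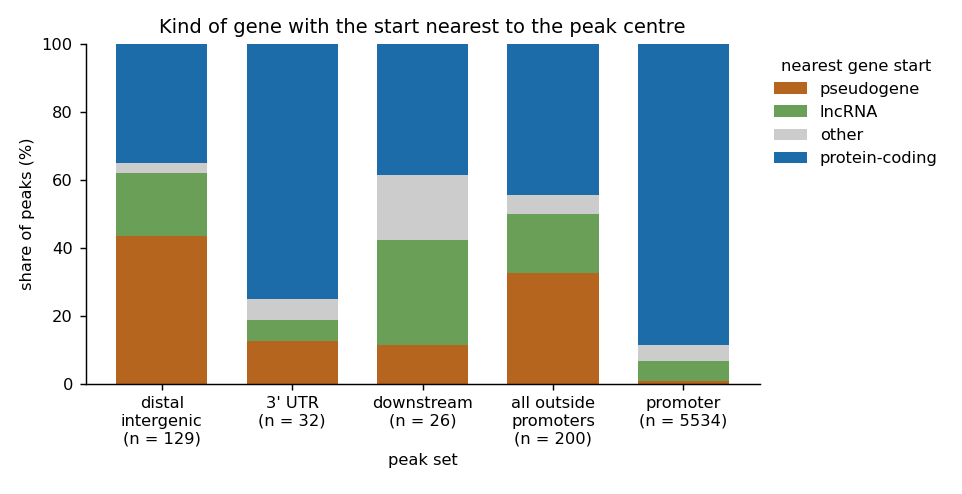
Share of peaks (vertical axis, percent) by the kind of gene whose start is nearest to the peak centre in the newer annotation, for 3 classes of peaks outside promoters, all 200 peaks outside promoters, and promoter peaks. Pseudogenes have the nearest start for 43.4% of distal intergenic peaks and 0.958% of promoter peaks. Both sets were chosen by an annotation that rests on distance to gene starts, which bears on these shares.

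The 40 peaks more than 8000 bases from the assigned start had a median score of 117.6 and a median distance of 13668 bases, and 34 of them had a pseudogene as the nearest start. Their sequence was more often repeated elsewhere: in 10 of the 40, at least 50% of the 31-base words of the central window occurred more than once in the nuclear genome, compared with 5 of the 160 nearer peaks and 0.506% of promoter peaks. Where reads cannot be placed uniquely, a peak's position and score are less certain, and the part of repeats in these peaks was not tested. Of all 15 such repeated windows outside promoters, 6 belonged to peaks under 100 bases wide. A pair of peaks assigned to AT4G06479, at chr4:3055078-3055082 and chr4:3055402-3055541, carried the same score of 414.7 and had 89.7% and 100% repeated words. Without the 15 repeated windows, the median score of the remaining 185 peaks was 131.3. Far peaks with mostly unique sequence also existed, such as the one with 0% repeated words and a score of 1256.18 upstream of AT1G42430.

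Of 52 genes in 5 lists (group G bZIP factors, light signalling, circadian clock, enzymes of reactive oxygen species, and abscisic acid signalling and response), 0 were assigned a peak outside promoters, beside 0.517% of the 37899 annotated genes, a share near which a count of 0 says nothing about the lists. Promoter peaks, which 13.9% of annotated genes have, were assigned to 27 of the 52: 4 of 5 group G bZIP genes, 3 of 8 light genes, 7 of 14 clock genes, 2 of 9 reactive oxygen genes and 11 of 16 abscisic acid genes. The 13.9% is over all annotated genes, with pseudogenes and lncRNAs. Of 18056 genes measured in the RNA-seq data with known exons, 4024 had a promoter peak, and 47 of the 52 were measured. The lists were chosen with earlier results of these data known, so no enrichment is read from these shares.

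In the RNA-seq data, which hold between 8997073 and 10262992 counts per library, bZIP68 itself had 2, 0 and 2 counts in H2O2 bzip68 libraries and 2, 1 and 1 in mock bzip68 libraries, against 87, 93 and 70 in H2O2 wt and 74, 82 and 102 in mock wt libraries. The mutant and wt libraries do not overlap, and the difference was called in mock seedlings (log2 fold change -5.84 ± 0.38, standard error, adjusted p = 2.75e-07) and in H2O2 seedlings (-5.70 ± 0.38, adjusted p = 4.39e-07, edgeR quasi-likelihood test with Benjamini-Hochberg adjustment). The bZIP68 gene has a promoter peak and no peak outside promoters. Along the second principal component the libraries within a group spread widely: mock bzip68 replicate 2 (-33.4) and H2O2 wt replicate 2 (-24.4) lay at one end, and H2O2 bzip68 replicate 1 (23.8) and mock bzip68 replicate 1 (22.9) at the other.

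Of the 196 genes assigned a peak outside promoters, 126 were measured, that is, present in the deposited table and above the filter on low counts. This was the case for 69 of 125 genes of distal intergenic peaks, 29 of 32 of 3′ UTR peaks, 17 of 26 of downstream peaks, 9 of 10 of exon peaks and 2 of 3 of intron peaks. In mock wt seedlings, the median level of the measured genes per kilobase of exon was 8.64 CPM (counts scaled to library size) for the genes of the 200 peaks together and 8.52 for all genes tested. By class, the median level per kilobase was 7.17 CPM for distal intergenic, 8.64 for 3′ UTR, 17.9 for downstream and 18.2 for exon peaks. The level of genes with a promoter peak was 10.4 CPM per kilobase.

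In mock seedlings 1 of the 126 genes was called between bzip68 and wt, which is 0.794%, beside 0.214% of all 18205 genes tested (39 genes). The background itself rests on single libraries: over all genes there were 9 calls with mock bzip68 replicate 3 left out, 11 with mock wt replicate 1 left out, 8 with mock wt replicate 2 left out and 122 with mock wt replicate 3 left out. The gene called among the 126 was RAV1, which encodes a transcriptional repressor with AP2 and B3 domains. RAV1 had 482, 402 and 433 counts in mock bzip68 libraries, against 979, 905 and 759 counts in mock wt libraries, which is 47.8 ± 1.42 CPM and 93.6 ± 16.0 CPM (SD, n = 3 each). All 3 mutant libraries lay below all 3 wt libraries. Such groups without overlap were found in 14 of the 126 genes (11.1%) in this comparison, beside 14.2% of all genes tested. RAV1 fell by 0.97 ± 0.15 on the log2 scale (adjusted p = 0.0157 by edgeR). Its peak outside promoters, at chr1:4536928-4537905 with a score of 131.7, lies 4263 bases upstream and holds no G-box in the window; RAV1 has a promoter peak as well, so that the part of either peak in its level cannot be told apart. The call was lost when mock bzip68 replicate 3 (adjusted p = 0.104), mock wt replicate 1 (0.107) or mock wt replicate 2 (0.106) was left out, and in a fit of the 6 mock libraries alone (0.0632), with log2 fold changes of -0.95, -0.88, -0.91 and -0.97 in that order. At an unadjusted p under 0.05 there were 12 of the 126 genes (9.52%), beside 10.1% of all genes tested. The median log2 fold change was 0.03 over the 126 genes and 0.01 over all genes.

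In H2O2 seedlings, 0 of the 126 genes were called between bzip68 and wt by edgeR and by DESeq2, beside 0.0714% of all genes tested by edgeR (13 genes). At an unadjusted p under 0.05 there were 14 (11.1%), beside 9.23% of all genes. The 2 smallest p-values were those of TPS10 and RAV1. TPS10, a class II trehalose phosphate synthase gene, had 37.5, 41.0 and 41.7 CPM in H2O2 bzip68 libraries, against 59.2, 49.8 and 61.3 CPM in H2O2 wt libraries (log2 fold change -0.50 ± 0.13, adjusted p = 0.236). RAV1 had 70.9, 77.2 and 87.1 CPM in H2O2 bzip68 libraries, against 108.1, 136.1 and 101.8 CPM in H2O2 wt libraries (log2 fold change -0.56 ± 0.15, adjusted p = 0.241). In both genes the groups did not overlap, as in 24 of the 126 genes (19%) and in 16.7% of all genes tested. The difference between the genotype effects in H2O2 and in mock was called for 0 of the 126 genes and 0 of all genes tested, with 6 (4.76%) and 6.47% at an unadjusted p under 0.05; for RAV1 it was 0.41 ± 0.21 on the log2 scale (adjusted p = 0.76).

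Spraying with H2O2 gave more calls. In wt seedlings 17 of the 126 genes (13.5%) were called between H2O2 and mock, beside 9.74% of all genes tested (1773 genes). Of these, 5 were higher (3.97%, beside 5.02% of all genes) and 12 lower (9.52%, beside 4.72% of all genes), and the median log2 fold change was -0.01 over the 126 genes and 0.00 over all genes. At an unadjusted p under 0.05 there were 27 (21.4%), beside 21.9% of all genes. Leaving out 1 library moved the count of calls to 11 without H2O2 wt replicate 2, 11 without H2O2 wt replicate 3, 10 where mock wt replicate 1 was left out and 8 where mock wt replicate 3 was left out, while the share over all genes fell to between 6.17% and 6.96% in the same fits. Of the 17 genes, 10 had a distal intergenic peak, 4 a 3′ UTR peak and 3 a downstream peak, and 5 had a promoter peak too. GBSS1 and A/N-InvC, described below, are among these 5, so that the part of either peak in their levels cannot be told apart. The mock wt libraries also serve as the controls of the genotype comparison in mock seedlings.

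**Figure D4:**
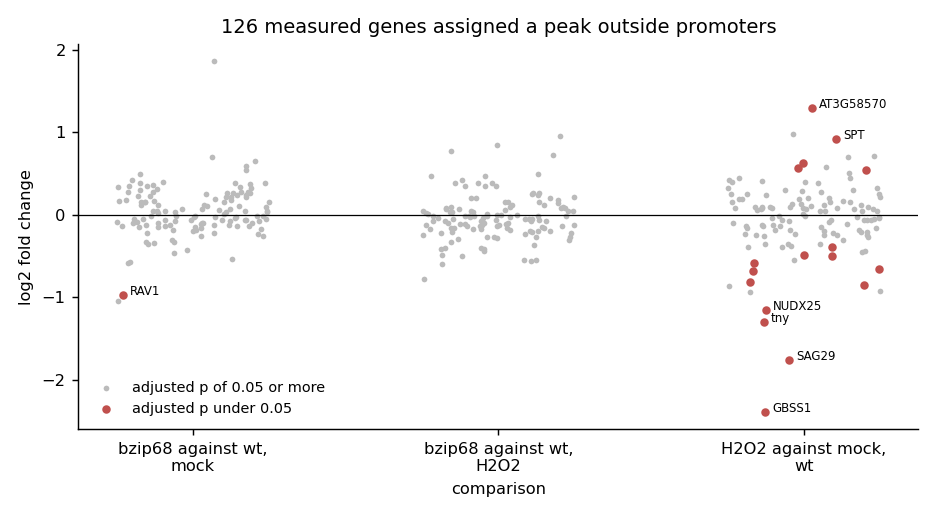
Log2 fold change (vertical axis) of each of the 126 measured genes assigned a peak outside promoters in 3 comparisons (horizontal axis), 1 point per gene, red where the adjusted p is under 0.05. Only RAV1 is red for bzip68 against wt in mock, none in H2O2, and 17 are red for H2O2 against mock in wt.

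Among the genes that fell, GBSS1, the granule-bound starch synthase that makes amylose, had 50.1, 52.9 and 36.8 CPM in H2O2 wt libraries, against 272.1, 179.7 and 278.8 CPM in mock wt libraries. The groups lie far apart, with a log2 fold change of -2.39 ± 0.22 (adjusted p = 8.09e-06), the largest change among the 126. SAG29, a sucrose transporter gene of the SWEET family linked to senescence, had 1.57, 1.51 and 2.23 CPM in H2O2 wt libraries, against 4.27, 5.47 and 8.23 CPM in mock wt libraries (log2 fold change -1.76 ± 0.30, adjusted p = 0.00103). The gene tny, which encodes the AP2/ERF factor TINY, had 2.07, 1.98 and 2.03 CPM in H2O2 wt libraries, against 4.06, 5.91 and 5.06 CPM in mock wt libraries (log2 fold change -1.30 ± 0.23, adjusted p = 0.00179). NUDX25, a Nudix hydrolase gene, averaged 3.25 ± 0.524 CPM in H2O2 wt and 7.29 ± 0.962 CPM in mock wt libraries (SD, n = 3 each; log2 fold change -1.16 ± 0.24, adjusted p = 0.0054 by edgeR). These 4 calls held in all 6 fits that left out 1 library. Phox3, whose protein carries PB1 and tetratricopeptide domains, averaged 8.84 ± 0.272 CPM in H2O2 wt and 14.2 ± 2.18 CPM in mock wt libraries (log2 fold change -0.68 ± 0.16, adjusted p = 0.0112 by edgeR), and its call was lost without mock wt replicate 3 (adjusted p = 0.0757). KAN2 averaged 8.04 ± 0.731 CPM in H2O2 wt and 12.7 ± 3.14 CPM in mock wt libraries, with a log2 fold change of -0.66 ± 0.20. Its adjusted p of 0.0477 by edgeR lay just under the threshold, and the call was lost in 5 of the 6 fits, those without H2O2 wt replicate 1, 2 or 3 (adjusted p = 0.119, 0.0764 and 0.158) or without mock wt replicate 1 or 3 (0.104 and 0.265).

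Among genes with a symbol, 3 rose, all assigned a distal intergenic peak with a G-box, beside 38.0% of all distal intergenic peaks that hold one. Of the genes of the preceding paragraph, which fell, NUDX25 and KAN2 also have such a peak, and GBSS1, SAG29, tny and Phox3 do not. Other called genes fell too: HA2, HB16 and AT1G35560 have a peak with a box, and AT1G29660, ATSK12 and AT3G57400 have one without. AT3G58570, a gene without a symbol, also rose (log2 fold change 1.29 ± 0.21), and its 3′ UTR peak holds no box in the window. Whether the box bears on the direction of change was not tested. TPS10 had 59.2, 49.8 and 61.3 CPM in H2O2 wt libraries, against 39.4, 43.2 and 31.9 CPM in mock wt libraries (log2 fold change 0.57 ± 0.13, adjusted p = 0.0102), and its call was lost without H2O2 wt replicate 3 (adjusted p = 0.0534) or mock wt replicate 3 (0.0645). SPT, which encodes the basic helix-loop-helix factor SPATULA, had 4.53, 7.05 and 5.68 CPM in H2O2 wt libraries, against 3.10, 3.24 and 2.78 CPM in mock wt libraries (log2 fold change 0.92 ± 0.24, adjusted p = 0.0202). A/N-InvC, a neutral invertase gene, had 65.7, 83.7 and 62.6 CPM in H2O2 wt libraries, against 47.7, 55.9 and 33.5 CPM in mock wt libraries (log2 fold change 0.63 ± 0.18, adjusted p = 0.0322). The groups do not overlap in TPS10, SPT and A/N-InvC or in the genes of the preceding paragraph. That was a condition for describing them and lends them no support. The call of SPT was lost without H2O2 wt replicate 2 (adjusted p = 0.104), H2O2 wt replicate 3 (0.0553), mock wt replicate 1 (0.0637) or mock wt replicate 3 (0.0889). That of A/N-InvC was lost without H2O2 wt replicate 1 (0.0532), H2O2 wt replicate 2 (0.152), mock wt replicate 1 (0.0807) or mock wt replicate 3 (0.157). Leaving out both libraries at the low end of the second component, mock bzip68 replicate 2 and H2O2 wt replicate 2, gave 15 calls among the 126 and also ended the calls of SPT (0.068) and A/N-InvC (0.109).

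**Figure D5:**
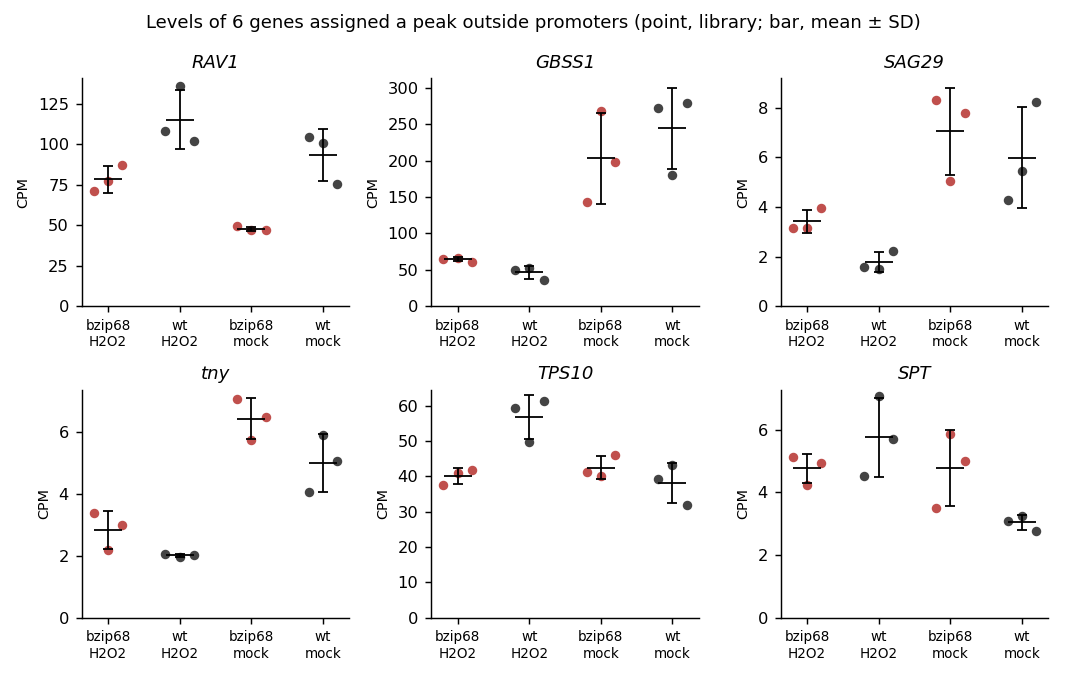
CPM (vertical axis) of 6 genes assigned a peak outside promoters in the 4 groups of 3 libraries; points are libraries and bars are means ± SD. RAV1 is lower in every mock bzip68 library (46.9 to 49.4 CPM) than in every mock wt library (75.3 to 104.5 CPM), and GBSS1 is below 70 CPM in all H2O2 libraries and above 140 in all mock libraries.

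Of the 10 highest peaks, 6 have a measured assigned gene, and GATA13 and LCR5 are not among these genes. The 6 measured genes showed no called difference in any of the 3 comparisons. MP averaged 20.2 ± 1.91 CPM in mock bzip68 and 18.1 ± 1.07 CPM in mock wt libraries, with a log2 fold change of 0.16 ± 0.13. APRR2 averaged 27.9 ± 3.99 CPM in mock bzip68 and 27.3 ± 2.14 CPM in mock wt libraries (0.03 ± 0.14). EMB269 averaged 56.4 ± 11.1 CPM in mock bzip68 and 55.2 ± 2.21 CPM in mock wt libraries (0.03 ± 0.14). AT1G42430 averaged 19.9 ± 1.99 CPM in mock bzip68 and 16.6 ± 2.22 CPM in mock wt libraries (0.26 ± 0.16). AT2G23755 averaged 5.85 ± 0.942 CPM in mock bzip68 and 3.88 ± 0.196 CPM in mock wt libraries (0.59 ± 0.20, adjusted p = 0.293 by edgeR). Its groups did not overlap, as in 14.2% of all genes tested. AT2G01580 averaged 1.13 ± 0.823 CPM in mock bzip68 and 1.20 ± 0.165 CPM in mock wt libraries (-0.06 ± 0.47). In H2O2 seedlings the log2 fold changes of these 6 genes between bzip68 and wt lay between -0.22 and 0.35, each smaller than 2 standard errors.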

How the data were processed

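Peaks were the authors' deposited list, with a score of 10 times the negative log10 p per peak and a p-value limit of 1e-05, per the file headers; whether replicates were pooled is not stated. MACS 1.4.3, ChIPseeker, TopHat2 2.1.0, RSEM and TAIR10 are named per the submitters' processing notes. Nuclear chromosome lengths of TAIR10 and TAIR10.1 are equal, and all 5343 assigned genes found in RefSeq overlap the authors' gene spans.

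RNA values were counts per gene (18430 genes) that the authors deposited. Of the columns, 6 matched no label and were not used; both low-light groups are not analysed here. Counts of 12 libraries were filtered (18205 genes left), TMM-scaled and tested with edgeR 4.0.16 (quasi-likelihood, R 4.3.3) at a Benjamini-Hochberg adjusted p under 0.05; DESeq2 1.42.0 was an alternative. The scripts recovered planted changes, boxes and distances in simulated data. Replicate libraries were distinct (chi-square over degrees of freedom between 6.154 and 28.83).

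Named were the 10 highest peaks, the 2 highest per class, genes called between genotypes (else the 2 smallest p), and up to 6 symbols each way, of at least 5 CPM and without overlap, for H2O2. Members and lists were chosen with earlier results of these data known.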

Additional observations from a re-analysis of the deposited data

Results flagged for a closer look

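Phox3, assigned a 3′ UTR peak with a score of 117.1, is singled out because its genotype difference runs one way in mock and the other in H2O2 seedlings in every library. It had 9.71, 9.89 and 12.2 CPM in H2O2 bzip68 libraries, against 8.96, 9.03 and 8.52 CPM in H2O2 wt libraries, and 10.2, 9.36 and 11.5 CPM in mock bzip68 libraries, against 12.3, 13.7 and 16.6 CPM in mock wt libraries. The difference of the genotype effects, H2O2 minus mock, was 0.72 ± 0.23 on the log2 scale, with an adjusted p of 0.709 by edgeR, so that it did not pass the test. Groups did not overlap in 14.2% of all genes tested in mock and in 16.7% in H2O2. The share of all genes with both and opposite directions is not given here, and Phox3 was picked for this pattern.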

How the results depend on the processing

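The count of called genes in mock (1, RAV1) was 2 with DESeq2, which added AT1G30820, and 0 in the fit of the 6 libraries alone, with the replicate block, with the gene covering the peak centre and with scores above the median; without 1 library it ran from 0 to 1. In H2O2 the count of 0 became 1 (FP3) with the replicate block. In wt the count of 17 of 126 (13.5%) was 3 of 37 (8.11%) with the gene covering the centre and 5 of 48 (10.4%) with scores above the median, beside 9.74% of all genes, and ran from 8 to 18 without 1 library; with the replicate block it was 17, without KAN2 (adjusted p = 0.0782). Over all genes the calls in mock numbered 39 in the fit reported, 216 with DESeq2, 17 in the 6 libraries alone, 39 with the block and 73 without mock bzip68 replicate 2 and H2O2 wt replicate 2; in H2O2 they numbered 13, 70, 31, 21 and 27. Same-numbered libraries did not pair: their deviations correlated at -0.11, 0.18 and 0.20 in mock, 0.25, 0.20 and -0.29 in H2O2, and -0.21, -0.09 and -0.11 in wt. Of 110 values under alternatives of single genes called in the fit reported, 86 kept the call, 24 lost it and 0 reversed; the 22 values of RAV1 and TPS10 in H2O2 had no call in any fit. The G-box share of 35.0% was 20.5% within 50 bases of the centre and 38.5% within 250 bases. For promoter peaks the shares were 14.4% and 38.3%, so that the higher share outside promoters was not seen in the widest window. The 51 peaks near a start became 78 within 2000 bases and 8 with protein-coding genes only. The 200 peaks became 82 in scores above the median and 0 in the shorter list. Causes were not tested. Peak scores have no replicate error, and ChIP depth is unknown.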
